A study of Mus musculus with 8 samples.

Results

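The regions described here are the m6A peaks that lie on mouse genes whose symbol begins with Zfp followed by a digit. They were taken from 4 lists of m6A peaks by gene symbol alone, and comprised 3447 of the 112768 lines in those lists (3.06%), on 270 of 9153 genes. A list has a line for each transcript isoform, so lines of the same gene that overlapped were merged into distinct peaks. The 4 lists then held 538 and 370 distinct Zfp peaks in GM and 546 and 280 in 3d DM (replicates 1 and 2), and merging over the lists gave 735 places. The cells were C2C12, an immortalized myoblast line from mouse muscle that represents only 1 line. In GM they grew in medium with 10% fetal bovine serum and were taken at about 50% confluence. In 3d DM they had spent 3 days in 2% horse serum, added at about 90% confluence. For each state there were 2 libraries of RNA immunoprecipitated with an antibody against m6A (MeRIP-seq) and 2 of the input RNA. Nothing says that the replicates were separate cultures, so the p-values given here measure only the spread between these samples.

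Most Zfp genes encode C2H2 zinc finger proteins, in which cysteine and histidine pairs hold a zinc ion and each finger contacts a few bases of DNA. Fingers stand in tandem, usually all encoded by the last coding exon, and are joined by a short conserved linker, most often threonine, glycine, glutamate, lysine and proline in that order, which is the form searched here. Many also carry a KRAB domain, which recruits the corepressor TRIM28 (KAP1) and with it the histone methyltransferase SETDB1 and HP1 proteins. m6A is placed on messenger RNA by the METTL3 and METTL14 methyltransferase within the DRACH motif (A, G or T, then A or G, then A, C, and last A, C or T), and it is known to be dense in long internal exons and near stop codons. Members of this gene family have arisen by duplication, and reads from near-identical copies can be split between them, so the assignment of a peak to a single Zfp gene is uncertain where copies are alike.

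The input libraries carried the markers of the line. *Myod1*, the myogenic determination factor, had normalized values from 1016 to 1713. *Myog* rose from 1008 and 221 in GM to 5392 and 11502 in 3d DM (log2 difference GM minus 3d DM -4.06 ± 0.42 SE, limma adjusted p = 2.60e-20, or 0.066 without 3d DM replicate 1 and 0.084 without replicate 2). The proliferation gene *Mki67* fell from 3586 and 3659 to 446 and 760 (2.63 ± 0.42, limma adjusted p = 1.42e-08). The GM replicates differed in genes of muscle differentiation. *Myh3* had 1068 in GM replicate 1 and 273 in GM replicate 2, *Ckm* 110 and 17.1, *Mymk* 698 and 101, and *Des* 12764 and 5945. *Myog* was likewise higher in GM replicate 1, and the cause was not tested. *Ptprc*, *Pecam1* and *Epcam*, markers of blood, endothelial and epithelial cells, were at or below 2.21 in every library. The depth of the libraries is unknown, because the deposited values are already normalized. In bulk RNA, fewer cells of a type and less RNA per cell cannot be told apart.

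The sequences below are examples of stretches within Zfp peaks over a finger array. Each is 1 finger with the linker before it, from the 3 genes whose peaks held the most linkers (7 in *Zfp386*, 7 in *Zfp719* and 6 in *Zfp26*, which tied with *Zfp62* and *Zfp934*). Within a gene, the finger held by a peak in most lists was chosen, and among equals the one with most DRACH motifs. The motif number shown may therefore exceed that of the gene's other fingers under peaks. The sequences are coding sequence from GENCODE transcripts on mm10, written 5′ to 3′ in the sense of the RNA with T for U. Capitals mark DRACH. The *Zfp386* finger lies at chr12:116059867-116059950 (+), within a peak in 3 of the 4 lists. The *Zfp719* finger lies at chr7:43590163-43590246 (+), within a peak in both replicates 1, and the *Zfp26* finger at chr9:20437161-20437244 (-), within a peak in GM replicate 1.

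Zfp386: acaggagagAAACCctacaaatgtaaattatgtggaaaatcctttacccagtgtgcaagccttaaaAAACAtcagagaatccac

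Zfp719: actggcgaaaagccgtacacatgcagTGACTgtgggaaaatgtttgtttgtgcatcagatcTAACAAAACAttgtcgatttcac

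Zfp26: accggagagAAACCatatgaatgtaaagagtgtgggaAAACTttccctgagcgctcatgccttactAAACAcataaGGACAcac

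In the *Zfp386* and *Zfp26* fingers a DRACH falls inside the codons of the linker itself, whereas the linker of the *Zfp719* finger has none. Over the 4 lists, Zfp peaks covered 234 linker places in 98 genes, written in 99 different 15-base forms. The most frequent forms were these, shown because codons for the same residues can hold the motif or lack it.

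Form found at 25 places on 18 genes: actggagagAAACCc

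Form found at 15 places on 12 genes: actggagagAAACCt

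Form found at 13 places on 12 genes: actggagagaagccc

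Of the 234 places, 133 (56.8%) held a DRACH inside the 15 bases, in each of them starting at base 10. Over all linkers in the coding sequences of the 239 Zfp genes with a peak placed on a transcript, 553 of 946 (58.5%) held it, so linkers under peaks carried the motif about as often as linkers at large. Peaks were not concentrated on linkers. Linkers per kb of coding sequence numbered 1.34 ± 0.40 (SD, n = 4 libraries) inside Zfp peaks and 1.65 ± 0.26 outside them in the same transcripts, and were fewer inside in all 4 libraries (exact sign-flip permutation test, two-sided p = 0.13, the smallest that 4 libraries allow). DRACH motifs numbered 23.0 ± 0.39 per kb inside and 20.4 ± 0.33 outside, more inside in all 4 libraries (p = 0.13 by the same exact test). For all other genes the corresponding densities were 23.6 and 21.3 per kb. As the same 15 bases recur on up to 18 genes, reads confined to a linker cannot by themselves name a gene.

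Zfp peaks lay further into the coding sequence than the peaks of other genes. In GM replicates 1 and 2, 79.2% and 77.3% of distinct Zfp peaks touched coding sequence, and in 3d DM replicates 1 and 2 77.8% and 77.5%. For other genes the shares were 68.9%, 67.8%, 65.5% and 66.9% in the same order. Every library thus had the higher share on Zfp genes, by 10.7 ± 1.2 percentage points (SD of the difference, n = 4). The 3′ UTR was touched by 34.0%, 38.6%, 35.9% and 36.1% of Zfp peaks and by 52.7%, 57.1%, 53.3% and 53.4% of the others, a difference of -17.96 ± 0.72 points. Peaks that touched both coding sequence and 3′ UTR made up 15.1% of Zfp peaks and 22.8% of the others, and peaks that touched the 5′ UTR 2.48% and 4.47%. Each of these differences had the same sign in all 4 libraries, with an exact sign-flip p of 0.13, the smallest possible.

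**Figure D1:**
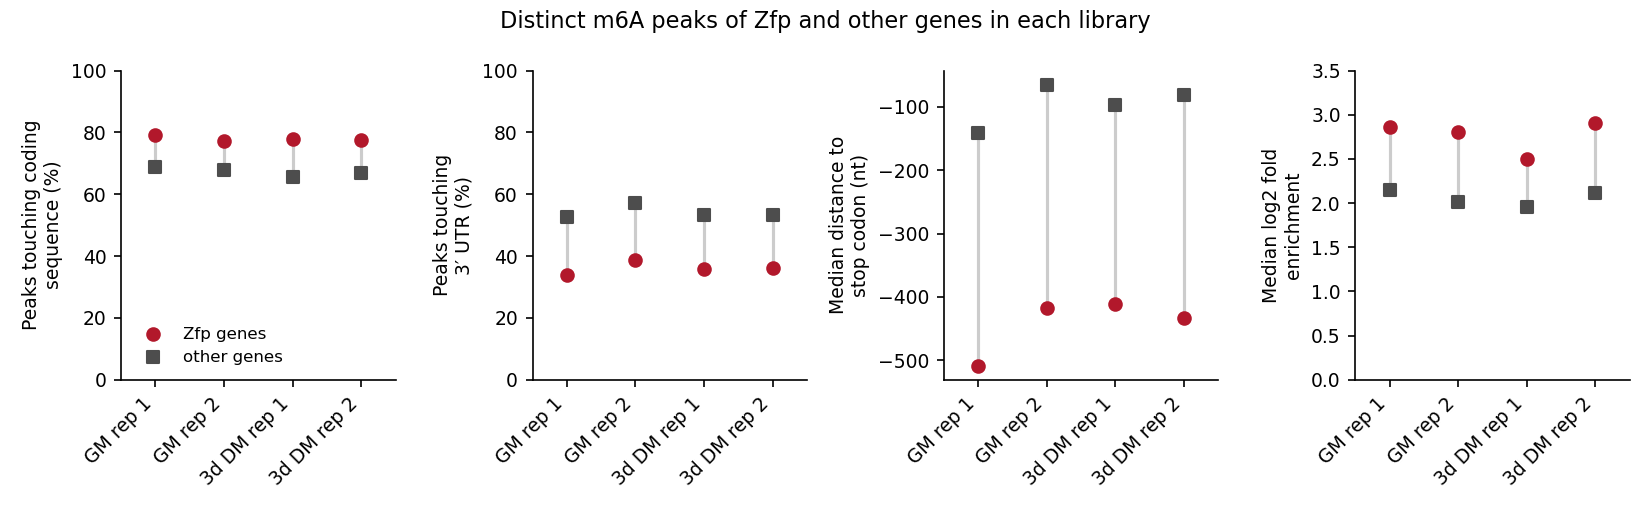
Share of distinct peaks that touch coding sequence, share that touch the 3′ UTR, median distance of peak midpoints to the stop codon in nt (negative is upstream) and median log2 fold enrichment, for Zfp genes (circles) and all other genes (squares) in each of the 4 libraries. A grey line joins the pair of values of a library; the 2 kinds of gene do not overlap in any panel.

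Distance to the stop codon gave the same order. Counted as negative upstream of it, the median midpoint of a Zfp peak lay at -508.5 nt (replicate 1) and -417.5 nt (replicate 2) in GM and at -411 and -433 nt in 3d DM. Other genes had medians of -142 and -65 nt in GM, and of -97.5 and -81.5 nt in 3d DM. Within 200 nt of the stop codon lay 22.5 ± 3.3% of the Zfp peaks and 26.01 ± 2.8% of the others (SD, n = 4), lower on Zfp genes in all 4 libraries (exact sign-flip p = 0.13). Midpoints spread evenly along the same transcripts would also have fallen there less often for Zfp genes, in 10.9 to 11.7% of cases against 12.3 to 13.9%. Both kinds of gene were above their even share in every library. In the mean over libraries both kinds of gene had their highest 100-nt bin at the stop codon, for Zfp genes from -100 to 0 nt with 7.55% of placed peaks and for the others from 0 to 100 nt with 7.31%. In GM replicate 1 the Zfp bin from -600 to -500 nt was level with it (5.98% each), and in 3d DM replicate 1 other genes were highest from 100 to 200 nt (6.56%). The difference lay upstream, where the stretch from -1000 to -200 nt held 30.1% of Zfp peaks and 20.6% of the others.

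**Figure D2:**
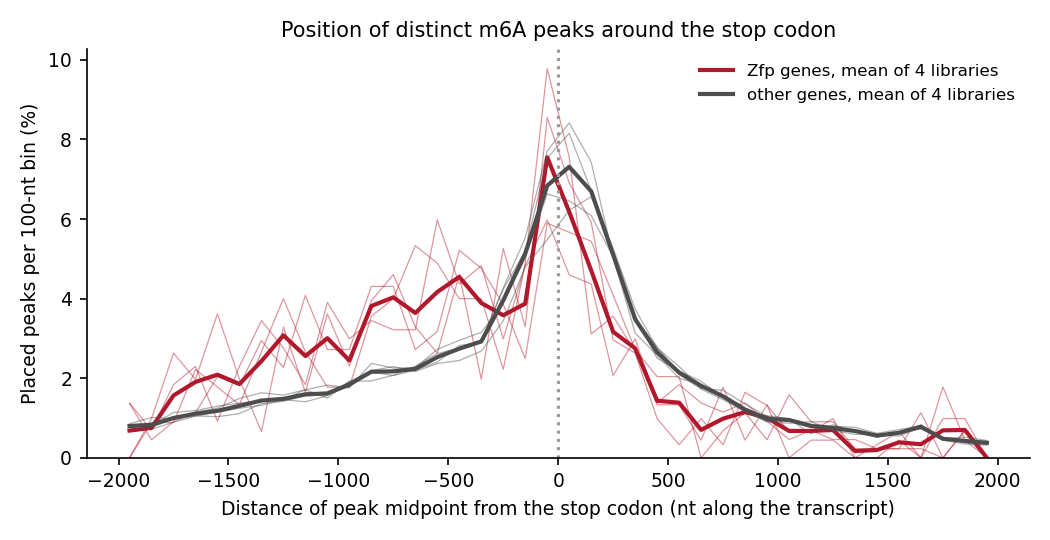
Share of placed peaks (%) in each 100-nt bin of distance between peak midpoint and stop codon along the transcript, for Zfp genes (red) and all other genes (grey). Thin lines are the 4 libraries and thick lines their means; both mean profiles are highest beside the stop codon, and the Zfp profile lies above the other between -1000 and -400 nt.

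The transcripts of Zfp genes differ in structure from those of other genes. Some of the differences in location turned among transcripts with a long coding part of the stop codon exon. The exon that holds the stop codon contained a median of 1361, 1184, 1371 and 1138 nt of coding sequence for Zfp peaks (GM 1, GM 2, 3d DM 1, 3d DM 2), against 163, 165, 166 and 158 nt for peaks of other genes. That exon held 78.4 ± 2.8% of the Zfp peaks and 59.5 ± 2.4% of the others. Midpoints spread evenly along the same transcripts would have fallen in it in 68.9 to 73.3% of cases for Zfp genes and in 46.3 to 48.1% for others. The observed shares exceeded the even ones in every library for both kinds of gene, by less for Zfp genes. Among transcripts with at least 1000 nt of coding sequence in that exon, 78.0% of Zfp peaks and 81.3% of other peaks touched coding sequence, so the sign of the difference turned in all 4 libraries (-3.31 points). The median distance turned as well, with -463 nt for Zfp genes and -583 nt for others, and so did the share within 200 nt of the stop codon, with 22.5% and 17.5%. The 3′ UTR difference kept its sign but shrank to -1.48 points, negative in 3 of 4 libraries (exact sign-flip p = 0.38). The differences for coding sequence with 3′ UTR (-6.03 points), the 5′ UTR (-2.64 points) and the stop codon exon (11.6 points) also kept theirs. This restriction sets only a lower limit, so lengths above it were not matched between Zfp and other genes. It was chosen after the data were seen.

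The array of fingers itself was not favoured. Counted here were placed Zfp peaks with their midpoint in coding sequence, on transcripts with at least 2 fingers (292 and 189 in GM, 275 and 136 in 3d DM). The midpoint fell between the first and the last finger in 58.3 ± 5.0% of cases, against 58.8% for midpoints spread evenly over the coding sequence. It was higher than the even share in 2 of 4 libraries. Upstream of the array lay 25.8 ± 1.2% against 31.4%, lower in all 4 libraries. Downstream of it lay 15.8 ± 5.6% against 9.87%, higher in all 4 (exact sign-flip p = 0.13 for both and 0.875 for the array). By the pattern Cys-X2-Cys-X12-His-X3-5-His, 148 of the 270 genes encoded 10 or more fingers, 110 encoded 1 to 9 and 12 encoded none. The last group includes the CCCH proteins of the *Zfp36* family, which have zinc fingers of another type. The share of lines touching coding sequence was 79.1% for genes with 10 or more fingers, 82.1% for 1 to 9 and 87.6% for none.

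Zfp peaks were also stronger and slightly more frequent per gene. The median log2 fold enrichment over input, taken over distinct peaks, was 2.86 and 2.80 for Zfp genes in GM, and 2.50 and 2.91 in 3d DM. For other genes it was 2.15 and 2.01 (GM) and 1.95 and 2.12 (3d DM). The lowest Zfp library stood above the highest value of the other genes, and the difference was 0.71 ± 0.12 (SD, n = 4; exact sign-flip p = 0.13). A gene with a peak had 2.29 and 1.95 distinct peaks in GM and 2.22 and 1.87 in 3d DM on Zfp genes, against 1.87, 1.71, 1.90 and 1.73 on others. Zfp peaks had median lengths of 210, 209, 181 and 151 nt against 241, 241, 241 and 210 nt, a difference of -45.5 nt that did not hold within classes of like expression (-3.34 nt as the mean over 4 classes) or among peaks with a p-value of at most 1e-05 (-14.4 nt, with 2 of 4 libraries higher).

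The difference in fold enrichment was smaller among genes of like expression. Zfp genes had low normalized input values, with a median of 101.7 over the tested members against 292.2 over all genes tested, on a scale that is not divided by transcript length. Across the 270 Zfp genes the mean log2 fold of the strongest peak had a Spearman correlation of -0.33 (Pearson -0.33 with log2 expression) and the mean number of peaks one of 0.59 (Pearson 0.52) with mean expression. These are descriptions across genes that share the same 4 libraries. As the mean over 4 classes of expression, the difference in median log2 fold was 0.39, positive in all 4 libraries. It was largest (0.47) in the highest class, which spans 210 to 3464 and within which expression was not matched. Between the 5th and 95th percentile of expression of Zfp genes with a peak (26.7 to 502.1), the difference was 0.52 ± 0.13. With at least 1000 nt of coding sequence in the stop codon exon it was 0.42 ± 0.17, and it was positive in all 4 libraries in both cases. In the same expression range the difference in peaks per gene was 0.42 ± 0.12, positive in all 4 libraries. Its sign turned under other settings. With the long coding exon the number was 2.07 on Zfp genes and 2.35 on others. Among peaks with a p-value of at most 1e-05 the difference was -0.0022, although 3 of 4 libraries were higher on Zfp genes.

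Within classes of expression, a Zfp gene had a peak more often than another protein-coding gene, with 1 library as an exception in the lowest class. Of 298 expressed Zfp genes, 77.5% and 63.4% had a peak in GM and 80.5% and 49.7% in 3d DM, against 65.7%, 62.5%, 64.4% and 55.5% of 10584 others, so the order turned in 3d DM replicate 2. Within quartiles of Zfp expression the mean shares over the 4 libraries were 39.7%, 64.2%, 79.4% and 88.0% for Zfp genes and 24.9%, 38.8%, 52.4% and 73.1% for others in the same classes. The highest class was not closely matched, with a median input value of 316.8 for Zfp genes and 504.7 for others. The difference was positive in all 4 libraries in the upper 3 quartiles (25.3 ± 12.8, 27.0 ± 3.58 and 14.9 ± 1.99 points; exact sign-flip p = 0.13 each). In the lowest quartile it was positive in 3 of 4, because 12% of Zfp genes and 16.2% of others had a peak in 3d DM replicate 2.

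**Figure D3:**
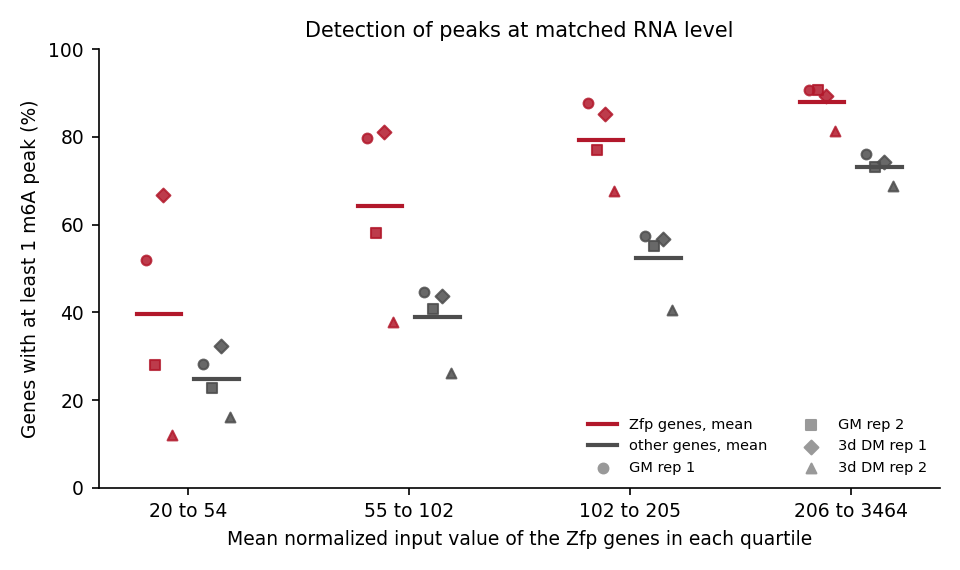
Share of genes with at least 1 m6A peak (%) in 4 classes of RNA level, set at the quartiles of Zfp expression (normalized input value), for Zfp genes (red) and other protein-coding genes (grey). Symbols are the 4 libraries and bars their means; the Zfp mean is higher in each class, from 39.7% against 24.9% in the lowest to 88.0% against 73.1% in the highest.

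Chromosome 7 had 63 of the 270 (of 92 annotated Zfp genes there), chromosome 17 had 38 (of 46), chromosome 13 had 25 (of 36) and chromosome 8 had 19 (of 24). Together these hold 53.7% of the Zfp genes with a peak and 50.6% of the 391 annotated Zfp genes. Of the 735 places, 411 touched only coding sequence and 147 only the 3′ UTR in every line. A place was found in all 4 lists in 154 cases (20.95%) and in a single list in 345 (46.9%), against 31.3% and 37.3% of the 18733 places of other genes.

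The genes with the most distinct peaks were long ones outside the KRAB group. *Zfp292*, a large transcription factor gene with 7083 nt of coding sequence in its stop codon exon, had 11 and 6 distinct peaks in GM and 9 and 4 in 3d DM. *Zfp609*, which encodes a partner of the Integrator complex, had 6, 3, 7 and 6, and *Zfp638*, which encodes an RNA-binding protein of the nuclear speckle, had 6, 6, 4 and 6. *Zfp516* had 6, 5, 7 and 4 and *Zfp318* 7, 6, 6 and 2, the latter level with *Zfp462* and *Zfp646* at a mean of 5.25.

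The strongest peaks, among genes with a peak in every list, were on *Zfp317*, *Zfp617*, *Zfp827*, *Zfp57* and *Zfp12*. The strongest peak of *Zfp317* was enriched 32.4- and 18-fold in GM and 63.5- and 15.9-fold in 3d DM, at a place that runs from coding sequence into the 3′ UTR (chr9:19647593-19648712). That of *Zfp617* was enriched 25.4-, 21.9-, 42.3- and 17.5-fold and lay wholly in the 3′ UTR, at a median of 555.5 nt past the stop codon (chr8:71933914-71934212). In both, the values of GM fell between those of 3d DM. *Zfp57*, which keeps the methylation of imprinted regions, had 1 distinct peak in each list, over its stop codon (chr17:37009856-37010635), enriched 13.6- and 34.4-fold in GM and 15.9- and 16.7-fold in 3d DM. *Zfp445*, which shares that role, had 4 and 5 peaks in GM and 5 and 4 in 3d DM, with strongest folds of 12.2, 5.74, 6.48 and 6.68. *Zfp809*, which silences retroviral DNA through TRIM28, had strongest folds of 28.9 and 5.09 in GM, against 5.76 and 17.5 in 3d DM, so its replicates differed more than the states.

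The number of Zfp peaks did not separate GM from 3d DM. There were 454 ± 119 distinct Zfp peaks in GM and 413 ± 188 in 3d DM (SD, n = 2; exact permutation p = 1, where 2 libraries against 2 cannot go below 0.333). They lay on 235 and 190 genes in GM and on 246 and 150 in 3d DM. Zfp peaks were 3.77% and 3.01% of all distinct peaks in GM and 3.82% and 2.56% in 3d DM. The libraries grouped by replicate number instead, since both replicates 1 had more Zfp peaks (mean 542) than both replicates 2 (mean 325) and a larger Zfp share. The part of this split in the results was not tested. Of 12 measures of the difference between Zfp and other peaks, 7 did not overlap between the states, each with the exact permutation p of 0.333 that is the smallest possible here, so the design cannot show a difference. They were the shares touching coding sequence, each UTR and coding sequence with 3′ UTR, the share within 200 nt of the stop codon, the median distance and the median length. The excess of Zfp peaks touching coding sequence, for example, was 10.3 and 9.49 points in GM but 12.3 and 10.6 in 3d DM. The other measures, among them fold enrichment (0.71 and 0.79 against 0.54 and 0.79) and peaks per gene, overlapped.

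By gene, 131 of the 270 Zfp genes (48.5%) had a peak in all 4 lists, near the 54.5% of all genes with a peak. A single Zfp gene, *Zfp367*, had a peak in both GM lists and in neither 3d DM list (0.37%, against 3.56% of all genes). Its peaks lay at different places in the pair of GM lists, enriched 4.47-fold in the 3′ UTR and 2.90-fold at the stop codon. *Zfp174* and *Zfp692* had a peak only in both 3d DM lists (0.74%, against 2.31% of all genes). The *Zfp174* peak at the stop codon was enriched 6- and 10.0-fold, and the peaks of *Zfp692*, at different places, 5.29- and 6.68-fold. By contrast 33 Zfp genes (12.2%, against 4.26% of all genes) had a peak in both replicates 1 alone, and 0 in both replicates 2 alone (against 1.44%). The GM-only count depended on the peaks admitted. Among peaks with a p-value of at most 1e-05 it was 8 of 159 Zfp genes (5.03%), against 5.07% of all genes, and among peaks enriched at least 4-fold 3 of 262 (1.15%), against 4.08%.

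The strength of Zfp peaks was compared at the 154 places, on 117 genes, with a peak in all 4 lists. A place joined lines of a gene that overlapped in a chain over the lists, and each list gave its largest fold there. The peaks of the 4 lists at a place therefore need not share bases. Over these Zfp places the median log2 fold was 2.87 and 2.89 in GM compared with 2.65 and 3.10 in 3d DM, so that 3d DM held both the lowest and the highest library. In limma fits across all 6021 such places, 0 Zfp places were called at an adjusted p of 0.05, as were 0 of all places (0%), and the smallest adjusted p of a Zfp place was 0.84. At an unadjusted p under 0.05 there were 11 of the 154 Zfp places, and 235 of all 6021 places (3.9%). Of the 11, 9 were higher in GM, and in the counts that follow all places also lay more often higher in GM. Both GM values exceeded both 3d DM values at 38 Zfp places (24.7%, against 21.8% of all places) and lay below both at 16 (10.4%, against 9.25%). Both replicates 1 exceeded both replicates 2 at 22 (14.3%, against 17.3%) and lay below them at 42 (27.3%, against 18.1%). The median log2 difference, GM minus 3d DM, was 0.22 over Zfp places and 0.10 over the others. It turned for Zfp places relative to the others when GM replicate 2 was left out, from 0.11 to -0.042.

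The places with the lowest unadjusted p are named here after their values were seen. *Zfp408*, a gene known for its part in retinal vessel growth, was enriched 26.2- and 26.6-fold in GM and 5.73- and 3.09-fold in 3d DM at chr2:91645014-91645732 in its coding sequence (log2 difference 2.65 ± 0.46 SE, limma unadjusted p = 2.91e-04, adjusted p = 0.84). *Zfp719* was enriched 29.7- and 11.7-fold in GM and 4.66- and 3.97-fold in 3d DM at chr7:43589307-43589701 (2.12 ± 0.52, limma adjusted p = 0.84). *Zfp646* was enriched 12.2- and 14.1-fold in GM and 5.82- and 4.38-fold in 3d DM at chr7:127880017-127881213. In these genes the states did not overlap, yet none passed the adjustment. *Zfp652* held places of opposite sign, 15.7 and 14.1 against 4.50 and 6.12 around the stop codon and 4.18 and 4.38 against 6.79 and 14.2 upstream in the coding sequence. The coding stretch that the peaks of all 4 lists share is shown for the 3 wholly coding places of lowest p, cut to at most 120 bases, with DRACH in capitals.

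Zfp408, chr2:91645433-91645552 (-): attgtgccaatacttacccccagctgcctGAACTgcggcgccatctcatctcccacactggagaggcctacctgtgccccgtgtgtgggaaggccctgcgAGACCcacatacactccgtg

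Zfp719, chr7:43589461-43589521 (+): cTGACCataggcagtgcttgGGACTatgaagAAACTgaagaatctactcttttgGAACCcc

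Zfp646, chr7:127880406-127880525 (+): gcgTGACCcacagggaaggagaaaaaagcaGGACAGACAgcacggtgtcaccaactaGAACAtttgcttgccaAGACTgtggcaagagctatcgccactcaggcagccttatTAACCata

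None of these stretches contains this linker, and they hold 2, 4 and 6 DRACH motifs. The *Zfp719* stretch ends 1676 nt before the stop codon, upstream of the finger shown above.

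**Figure D4:**
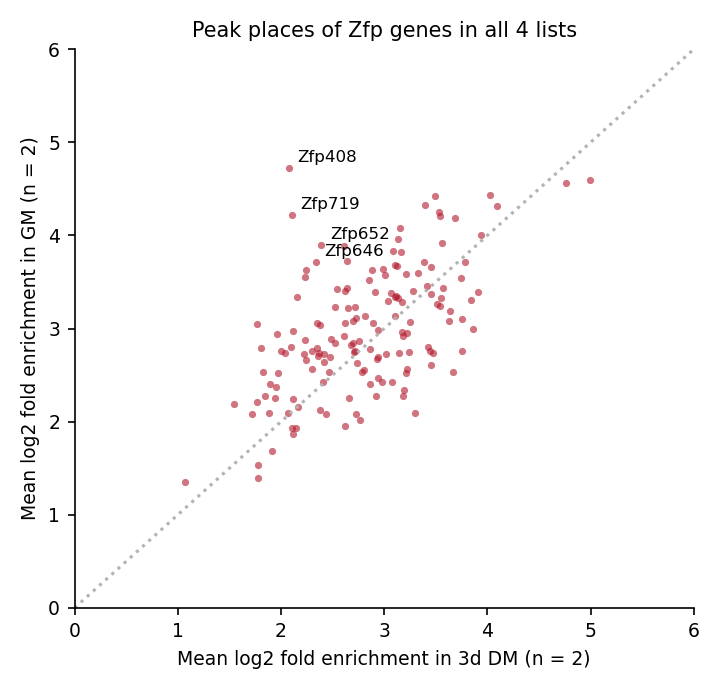
Mean log2 fold enrichment in GM (vertical) against 3d DM (horizontal), each of 2 libraries, at the 154 places of Zfp genes found in all 4 lists. The dotted line marks equal values; the 4 places with the lowest unadjusted p are named and lie above it, and none passed an adjusted p of 0.05.

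Input RNA of most Zfp genes was not called between the states. Of 300 Zfp genes tested among 11406, 7 were called higher in GM (against 9.96% of all genes) and 7 higher in 3d DM (against 7.01%), which is 4.67% of the Zfp genes (limma on log2(value + 1), adjusted p under 0.05). Of these 14 genes, 13 had an m6A peak (92.9%), near the 87% of all tested Zfp genes. Within the expression range of Zfp genes (30.8 to 488.7), 8 of 270 Zfp genes (2.96%) and 1168 of 7017 others (16.6%) were called. The median log2 difference, GM minus 3d DM, was 0.12 over Zfp genes and 0.22 over all genes. After rescaling by median of ratios, which centres all genes by construction, the medians were -0.11 for Zfp genes and -0.0055 for all genes, and 10 Zfp genes (against 11.2% of all genes) were called higher in GM and 12 (against 12%) higher in 3d DM. With a library left out, fewer genes of any kind were called. Zfp calls numbered 3 higher in GM and 1 in 3d DM without GM replicate 1 (against 11% of all genes called), 2 and 0 without 3d DM replicate 2 (against 5.93%), 0 without GM replicate 2 (against 7.66%) and 0 without 3d DM replicate 1 (against 1.27%).

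Among the genes called higher in GM was *Zfp36l2*, which binds AU-rich elements and hastens the decay of messages. Its values were 2290 and 2866 in GM, against 480 and 806 in 3d DM (log2 difference 2.04 ± 0.42 SE, limma adjusted p = 2.49e-05). *Zfp36l1*, of the same family and function, went the other way, with 544 and 212 in GM compared with 1258 and 1799 in 3d DM (-2.14 ± 0.44, adjusted p = 1.48e-05). *Zfp36*, the third of this family, had 165 and 146 in GM, against 136 and 131 in 3d DM and was not called (adjusted p = 0.86). All 3 had peaks in every list. The strongest were enriched 6.36-, 22.2-, 6.82- and 9.54-fold on *Zfp36l2*, 7.09-, 5.69-, 4.21- and 5.28-fold on *Zfp36l1* and 7-, 4.96-, 8.29- and 5.85-fold on *Zfp36* (GM 1, GM 2, 3d DM 1, 3d DM 2). The states overlapped on *Zfp36l2* and *Zfp36*, and on *Zfp36l1* both GM values exceeded both 3d DM values.

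*Zfp703*, a corepressor gene of the NET family, had 866 and 837 in GM compared with 200 and 327 in 3d DM (1.73 ± 0.45, limma adjusted p = 0.0012), with 2 distinct peaks in every list. *Zfp101*, *Zfp961* and *Zfp7* were also called higher in GM, with log2 differences of 1.87, 1.78 and 1.37. In 3d DM the calls included *Zfp568*, a KRAB gene that represses a placental *Igf2* transcript, with 393 and 346 in GM, against 1017 and 1376 in 3d DM (-1.68 ± 0.44, adjusted p = 0.0014). Its coding peak was enriched 15.3- and 9-fold in GM and 6.35- and 3.49-fold in 3d DM, so that RNA and enrichment lay in opposite directions, although the enrichment was not called (unadjusted p = 0.025, adjusted p = 1.00). *Zfp651*, *Zfp667* and *Zfp322a* were called higher in 3d DM as well, with log2 differences of -1.70, -1.51 and -1.44. *Zfp106*, which encodes an RNA-binding protein needed by motor neurons and muscle, had 2372 and 1891 in GM compared with 4338 and 5257 in 3d DM (-1.17 ± 0.41, adjusted p = 0.029) and carried 3, 3, 4 and 5 distinct peaks.

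**Figure D5:**
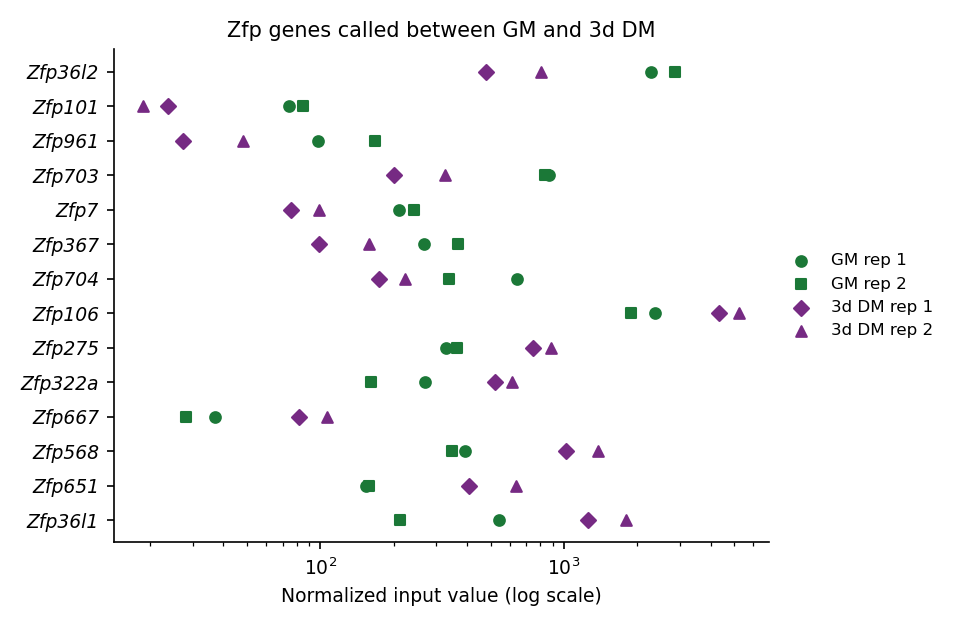
Normalized input values (log scale) of the 14 Zfp genes called between GM (green) and 3d DM (purple), 1 symbol for each of the 4 libraries. In each gene both libraries of a state lie on the same side of both libraries of the other state.

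The study named 13 Zfp genes for these experiments, chosen on these samples, so their direction is no independent evidence. It listed *Zfp316*, *Zfp157* and *Zfp637* as m6A-enriched in GM, and *Zfp712*, *Zfp59* and *Zfp964* in 3d DM. That came from an exomePeak comparison of the states, whereas the folds here are over input in each list, a different measure. All 13 had a peak, 8 of them in every list, 3 in 3 lists and 2 in a single list, and of the 12 tested for RNA *Zfp703* was called higher in GM and *Zfp568* higher in 3d DM. *Zfp637*, which is known to act on myoblast growth and differentiation, had 1 distinct peak in each list, enriched 5.25- and 3.96-fold in GM and 2.93- and 2.92-fold in 3d DM. *Zfp316* had strongest peaks of 15.7 and 18 in GM, against 6.53 and 17.5 in 3d DM, and *Zfp157* of 15.7 and 12.5 against 6.88 and 13.4. In these 2 genes the low value was that of 3d DM replicate 1 alone. *Zfp712* and *Zfp964* had a single peak, in 3d DM replicate 1, enriched 13.8- and 22.2-fold, at normalized input values that did not exceed 29.4. *Zfp59*, *Zfp839* and *Zfp943* had peaks in every list but that of 3d DM replicate 2. *Zfp282* and *Zfp369* had peaks in all 4 lists, and *Zfp462* had 10 and 3 distinct peaks in GM and 7 and 1 in 3d DM.

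Of 21 Zfp genes with a well known role, 20 had a peak and 16 had one in every list, which is 80% of those with a peak. The share over all Zfp genes was 48.5%, and these genes also had higher input values (median 385.5 against 105.3). *Zfp217*, whose product binds the m6A methyltransferase, had 5 and 4 distinct peaks in GM and 3 and 0 in 3d DM. *Zfp281*, a regulator of pluripotency, had 4, 2, 4 and 2, and *Zfp148*, which binds GC-rich promoters, 3, 2, 3 and 4. *Zfp91*, which encodes a ubiquitin ligase, had strongest folds of 14.5 and 7.04 in GM compared with 8.81 and 8.38 in 3d DM. *Zfp207*, which encodes a kinetochore and spindle protein, and *Zfp326*, a part of an elongation complex, had weaker peaks, at 2.08 to 2.61 and 3.07 to 5.14. *Zfp143* and *Zfp521* had a peak in 3d DM replicate 1 alone and *Zfp335* in GM replicate 2 alone. *Zfp423*, a gene of preadipocyte commitment, had no peak and was listed at or below 1.00 in every input library.

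The genes through which KRAB proteins act carried peaks in both states. Each of *Trim28*, *Setdb1*, *Atf7ip*, *Cbx1*, *Cbx3*, *Cbx5*, *Chd3* and *Chd4* had at least 1 distinct peak in every list. Of these 8 genes, *Cbx3*, which encodes HP1 gamma, was called between the states, with 1855 and 1872 in GM, against 536 and 822 in 3d DM (1.49 ± 0.43, limma adjusted p = 0.0044). That call was lost without GM replicate 1, GM replicate 2 or 3d DM replicate 1 (adjusted p = 0.19, 0.24 and 0.12). *Trim28* had 1978 and 2947 in GM compared with 900 and 1486 in 3d DM and was not called (1.06 ± 0.42, adjusted p = 0.062).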

How the data were processed

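C2C12 cells in GM and 3d DM were profiled by MeRIP-seq and input RNA sequencing, with 2 libraries of each kind in each state. The authors aligned reads to mm10 with HISAT2 2.1.0 and called peaks with exomePeak in each library against its input. The deposited peak lists give a fold enrichment (a ratio) and a p-value per line. The deposited gene table holds a normalized signal per Entrez gene, named for the TMM scaling of edgeR by the authors, whose low values are not whole reads, so no count test was used and depth, and the precision it sets, is unknown.

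Lines of a gene that overlapped by at least 1 base were merged within a list, and the line with the lowest p gave position and region. The fold enrichment of a distinct peak was the largest of its lines. Lines were placed on GENCODE M21 transcripts of equal identifier and length, which worked for 78.7% of Zfp and 81.6% of other lines. Coordinates are 1-based. Gene symbols were matched for 25275 of 27179 Entrez identifiers. Zfp and other peaks were compared per library by an exact sign-flip permutation test and states by an exact permutation test, both two-sided. Expression was tested as log2(value + 1), for genes that reached 2 CPM or more in no fewer than 2 libraries, and peak strength as log2 fold at places in all 4 lists, both with limma 3.58.1 in R 4.3.3 across all features. The expression fit had an intensity trend, which its standard errors follow, and the peak strength fit had none. P-values were adjusted by Benjamini-Hochberg. On simulated data with 200 features changed 4-fold, the expression step recovered 198 with 6 false calls among 11406 genes, and the peak strength step 196 with 9 false calls among 6021 places. The simulation gave all features the same spread and had no replicate effect. It therefore checks the steps but does not give their power on the real libraries. Other software was Python 3.11.15, scipy 1.17.1, Biopython 1.88 and matplotlib 3.10.9.

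Genes were named if the study names them, if their role is well known, if they ranked in the first 5 by number or strength of peaks or by called change (ties by symbol), if detected in a single state, or if their peaks held the most linkers. Members and lists were chosen with earlier results of these data known. Alternatives tried were deposited lines, stricter peaks, shared expression ranges, other pseudocounts, filters and scalings, a replicate block and each library left out.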

Additional observations from a re-analysis of the deposited data

How the results depend on the processing

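Over the alternatives run, Zfp peaks kept the higher fold enrichment (difference 0.33 to 0.76 log2 units) and the higher share in the stop codon exon, and 0 Zfp places were called for strength. Midpoints spread evenly along the same transcripts also gave Zfp genes the higher share in that exon. The 3′ UTR share stayed lower but its difference shrank to -1.48 points, and that of peak length to -3.34 nt, under the restrictions given next. The share touching coding sequence (-3.31 points), the share within 200 nt of the stop codon (5.01 points), the median distance (120 nt) and peaks per gene (-0.28) turned among transcripts with a long coding part of the stop codon exon, a restriction chosen after seeing the data, as was the mean over 4 RNA strata, which turned none of these. Peaks per gene also turned at a p-value of at most 1e-05 (-0.0022), although 3 of 4 libraries stayed higher on Zfp genes. GM minus 3d DM turned with a library left out, from -92 to 174 for distinct Zfp peaks, from -33.5 to 62.5 for Zfp genes with a peak and from -0.43 to 0.83 percentage points for the Zfp share. Zfp genes with a peak in GM only numbered 8 (5.03%, against 5.07% of all genes) at the stricter p-value and 3 (1.15%, against 4.08%) at a fold of at least 4. The median strength difference of Zfp minus other places ranged from -0.042 to 0.23.

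The 14 expression calls, 7 in each direction (4.67% of Zfp and 17.0% of all genes), became 2 and 0 (0.50% and 0.57%) with no filter, 11 and 5 (5.33% and 17.4%) without the intensity trend and 10 and 12 (7.33% and 23.2%) after rescaling, and ranged from 0 to 3 and from 0 to 1 with a library left out. The 14 genes kept their direction under each of these alternatives. The median change of Zfp genes minus that of all genes turned with no filter (0.086, against -0.10) and ranged from -0.14 to -0.046 with a library left out. The cause was not tested. The samples share a replicate number but nothing says that it marks a shared culture or day. With a replicate block, 4 and 3 Zfp genes (2.33%, against 11.4% of all genes) were called for expression and 0 for strength; replicate differences in GM and 3d DM correlated at 0.29 over all genes tested and 0.13 over all common places. With 2 libraries a state, no exact test could pass 0.05, and the unknown depth limits what an absent peak means.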
